A study of Hipposideros armiger and Mus musculus with 20 samples.

Results

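The Slc25 family of mitochondrial solute carriers was followed through brown and white fat of mice and bats kept warm or cold. Members were all genes of the deposited expression table whose symbol is Slc25a and a number, which gave 39 of 14871 genes, and a member was tested in a species where 2 or more of its libraries reached 1 FPKM. This left 35 members of 10689 genes tested in the mouse and 34 members of 11025 genes tested in the bat, with 32 members tested in both. The samples were 20 libraries of messenger RNA from fat, 8 from ICR mice, an outbred strain, and 12 from Hipposideros armiger, the great roundleaf bat. Animals of both species had been held for 7 days at 30 °C or at 10 °C, called warm and cold here. Each of the 10 groups of depot and temperature held 1 female and 1 male library. Both species gave brown fat from between the shoulder blades (interscapular, iBAT) and white fat from under the skin (sWAT), and the bat also white fat from within the abdomen (aWAT). Ages, the number of animals in a library and whether depots came from the same animals are not given in the labels used here, and a group's 2 libraries also differ in sex.

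Slc25 proteins sit mostly in the inner mitochondrial membrane and exchange metabolites, nucleotides, cofactors and inorganic ions between the cytosol and the matrix. They are built from repeats of a unit that is typically marked by a signature motif. The motif is proline, any residue, an acidic residue, any pair of residues and a basic residue. In the mouse, 0 such motifs were found in Slc25a51 and Slc25a53. In fat they serve the oxidation of fatty acids, which enter the matrix as acylcarnitines, and the making of fatty acids, for which citrate leaves it. Uncoupling protein 1 (Ucp1), through which brown fat makes heat, belongs to the same protein family under another name. It is not a member as defined here and is quoted as a marker of brown fat only.

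Several members come in pairs of close relatives. Pairs picked for unlike cold results below are shown with Slc25a20, each by a stretch of mouse coding sequence. The stretch surrounds the first signature motif, whose bases are in capitals (18 of 60 bases shown, GENCODE M21 transcripts of the mouse build GRCm38). The pyrimidine nucleotide carriers are encoded at chr4:149744036-149774277 on the minus strand (Slc25a33) and chr9:97074961-97111157 on the minus strand (Slc25a36), the coenzyme A carriers at chr8:70184340-70212305 on the minus strand (Slc25a42) and chr10:62920633-62946498 on the plus strand (Slc25a16), the aspartate-glutamate carriers at chr2:71271063-71367749 on the minus strand (Slc25a12) and chr6:6041218-6217173 on the minus strand (Slc25a13), and the carnitine-acylcarnitine carrier Slc25a20 at chr9:108662088-108684641 on the plus strand. All of the stretches lie in coding exons.
Slc25a33: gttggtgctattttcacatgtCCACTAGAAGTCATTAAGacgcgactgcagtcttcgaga
Slc25a36: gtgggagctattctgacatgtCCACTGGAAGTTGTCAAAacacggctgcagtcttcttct
Slc25a42: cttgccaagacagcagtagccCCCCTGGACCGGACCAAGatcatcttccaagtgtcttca
Slc25a16: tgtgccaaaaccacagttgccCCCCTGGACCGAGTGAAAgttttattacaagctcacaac
Slc25a12: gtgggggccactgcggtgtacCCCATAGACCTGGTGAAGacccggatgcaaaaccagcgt
Slc25a13: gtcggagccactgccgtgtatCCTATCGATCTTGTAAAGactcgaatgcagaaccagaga
Slc25a20: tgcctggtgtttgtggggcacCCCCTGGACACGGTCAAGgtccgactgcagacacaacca
Over the aligned coding bases, Slc25a33 and Slc25a36 were 66.2% identical, Slc25a42 and Slc25a16 60.5%, and Slc25a12 and Slc25a13 72.1%. Within the 18 motif bases each of the 3 pairs shared 13. The bat's own sequences were not used here.

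Expression is given as FPKM (fragments counted per kilobase of transcript length and per unit of library size), with the female library first and the male second in each group. Read totals are unknown. From the steps between low values the relative depth ran from 0.952 to 1.11 over the mouse libraries and from 0.625 to 1.08 over the bat libraries, lowest in bat iBAT (0.625 to 0.740). Markers of fat cells summed to between 1332 and 6992 FPKM in all libraries, and markers of other cells moved with some groups. The summed FPKM of the measured genes of 9 skeletal muscle markers was 1629 and 1316 in warm and 24.3 and 739.5 in cold mouse iBAT, 28.8 and 9.43 in warm and 17.9 and 1310.1 in cold mouse sWAT, and at most 1.95 in every bat iBAT and aWAT library, where Ckm was at most 0.129. That of 8 lymphocyte markers was 531 and 492 in warm and 196 and 2.44 in cold mouse sWAT, and at most 2.91 in every mouse iBAT library. That of 6 markers of epithelium and mammary gland was 85.5 and 1.08 in warm and 38.5 and 0.051 in cold mouse sWAT. All of it came from Epcam and Krt14. In bulk tissue, fewer cells of a type and less RNA per cell cannot be told apart.

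The summed FPKM of the 39 members was 1271 and 1243 in warm and 1948 and 2102 in cold mouse iBAT. Mouse sWAT held 619 and 758 in the warm and 2071 and 1895 in the cold. Cold libraries were above warm ones in both mouse depots, with no overlap. In the bat it was 1106 and 1173 in warm and 1657 and 1574 in cold aWAT, also without overlap. Bat iBAT went from 1184 and 1495 to 1577 and 1622, and bat sWAT lay at 1123 and 966 in the warm and 969 and 851 in the cold. These sums were not tested.

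**Figure D1:**
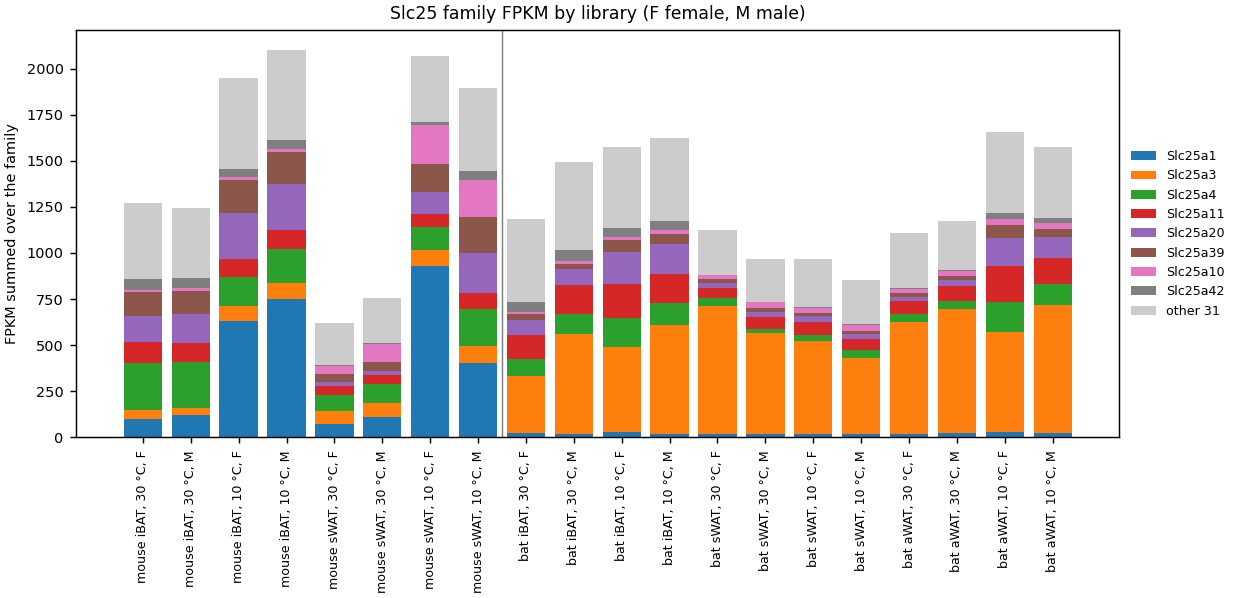
Stacked bars of FPKM (vertical axis, from 0) summed over the 39 Slc25 genes in each of the 20 libraries, by depot, temperature and sex, with 8 leading members in colour and the other 31 in grey. Slc25a1 takes up a larger part of the bar in the 4 cold mouse libraries, and Slc25a3 is the largest coloured part of every bat bar.

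Among the 39 members found, Slc25a4 or Slc25a1 had the highest FPKM in mouse libraries, and Slc25a3 in bat libraries. Slc25a5, a relative of Slc25a4, was not among those members. In warm mouse iBAT the highest member was Slc25a4, an ADP/ATP carrier of heart and muscle type that exports ATP from the matrix, at 252 and 251 FPKM, 19.8% and 20.2% of the family's sum. In cold mouse iBAT and sWAT the highest was Slc25a1, the citrate carrier, at 631 and 750.4 FPKM in iBAT and 932 and 402 FPKM in sWAT. Warm mouse sWAT had no single leader, with Slc25a4 at 84.7 and 101 FPKM and Slc25a1 at 71.0 and 109 FPKM. In all 12 bat libraries Slc25a3, the phosphate carrier that feeds ATP synthesis, was highest, between 312 and 698 FPKM, or 26.3% to 62.2% of the family's sum. How bat reads were assigned to mouse gene identifiers is not given in the sources used here, so levels were not set against each other across species.

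Changes below are differences of group means of log2(FPKM + 1) ± SE from limma, 2 libraries a group, less the median over all genes of that contrast, and a member is said to have risen or fallen where its adjusted p was under 0.05. That median was −0.30 for cold in mouse iBAT and −0.37 for cold in mouse sWAT. For iBAT against sWAT it was −0.57 in warm and −0.47 in cold mice, and in the bat it lay between −0.15 and 0.08. The p-values and calls are those of the changes before it was taken off.

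Of the 5 cold contrasts, that of mouse sWAT called the most members, and also the most genes over all (755 higher and 2867 lower). Of 35 members tested, 15 rose, against 7.06% of all genes tested, and 5 fell, against 26.8% of all genes. The median member stood at 0.80 above the median gene, and the range over members was −0.83 to 3.42. Both cold libraries lay above both warm ones in 20 of the 35, against 15.5% of all genes, and below them in 12, against 54.6%. All 5 tested carriers of the list for carnitine, citrate and dicarboxylates rose, with a median of 2.35, and 5 of 9 cofactor and nucleotide carriers rose while 1 fell, with a median of 1.62.

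Among the carriers of fuel molecules, Slc25a20, which brings acylcarnitines into the matrix for fatty acid oxidation, stood at 18.4 and 22.2 FPKM in warm sWAT and 117 and 215 FPKM in cold sWAT (log2 change 3.27 ± 0.28, adjusted p = 0.00688). Slc25a1, which exports citrate for fatty acid synthesis, went from 71.0 and 109 to 932 and 402 FPKM (3.15 ± 0.41, adjusted p = 0.012). In both, each cold library was above each warm one, but the cold male library was higher in Slc25a20 and the cold female in Slc25a1. With 1 library of each sex, sex cannot be told apart from the libraries' differing cell markers. Slc25a10, which exchanges malate and succinate for phosphate, went from 43.8 and 95.9 to 212 and 204 FPKM (2.03 ± 0.34, adjusted p = 0.0208). Slc25a11, which exchanges oxoglutarate for malate, went from 51.6 and 48.9 to 71.2 and 89.3 FPKM (1.02 ± 0.16, adjusted p = 0.0279). Slc25a35, a relative with no settled cargo, went from 5.64 and 13.0 to 31.4 and 44.0 FPKM (2.35 ± 0.35, adjusted p = 0.0164). None of these 3 overlapped between warm and cold.

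Of the cofactor carriers, Slc25a42, which brings coenzyme A into the matrix, was near level in the warm libraries at 5.37 and 5.44 FPKM and spread in the cold at 16.3 and 44.9 FPKM (2.50 ± 0.41, adjusted p = 0.0186). Slc25a51, the NAD carrier, went from 17.6 and 9.94 to 31.0 and 56.0 FPKM (1.95 ± 0.38, adjusted p = 0.0271). Cold libraries lay above warm ones in both of these, and the cold male was above the cold female. Slc25a33, a pyrimidine nucleotide carrier, rose by 1.72 ± 0.27 and Slc25a17, a peroxisomal carrier of coenzyme A and related cofactors, by 1.62 ± 0.21. Slc25a36, the other pyrimidine nucleotide carrier, fell (−0.45 ± 0.23, adjusted p = 0.0382), from 25.3 and 16.7 to 13.1 and 9.68 FPKM.

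Outside these groups, Slc25a39, which carries glutathione, stood at 43.8 and 53.0 FPKM warm and 156 and 194 FPKM cold (2.20 ± 0.17, adjusted p = 0.00675). Slc25a22, a glutamate carrier, rose by 1.72 ± 0.25, and Slc25a44, which carries branched-chain amino acids in brown fat, rose from 10.1 and 18.4 to 32.5 and 30.1 FPKM (adjusted p = 0.0264). The largest change of the family was that of Slc25a34, whose cargo is not settled, from 0.417 and 0.302 to 5.12 and 19.8 FPKM (3.42 ± 0.52, adjusted p = 0.0156). Slc25a48, also little known, went from 0.0515 and 0.0589 to 3.45 and 4.77 FPKM (2.63 ± 0.33, adjusted p = 0.012). Both were under 1 FPKM in the warm, where the pseudocount of 1 makes the fitted change smaller than the ratio of the levels. Slc25a4 went from 84.7 and 101 to 123 and 202 FPKM and did not pass (1.13 ± 0.25, adjusted p = 0.0569).

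Relative to the median gene, itself at −0.37, the 5 members that fell in cold mouse sWAT all fell by less than 1 log2 unit. Their calls rest on the changes before that median was taken off, which were larger falls. Slc25a37, mitoferrin, which brings iron into mitochondria of developing red cells, went from 9.33 and 8.44 to 4.47 and 2.42 FPKM (−0.83 ± 0.25, adjusted p = 0.0225). The others were Slc25a45 (−0.60 ± 0.27), Slc25a27, a relative of the uncoupling proteins (−0.57 ± 0.26), Slc25a36 and Slc25a38, the glycine carrier (−0.26 ± 0.20, adjusted p = 0.0482). In each of the 5, the cold male library was lowest and the cold female lay between it and the warm libraries, the order also seen in the lymphocyte markers, of which 2 of 6 tested fell, and 5 of 5 markers of dividing cells fell (43.1 and 28.7 summed FPKM warm, 7.34 and 6.29 cold). The part of these cells in the members' changes was not tested. Under scaling of libraries by median ratios, 18 members rose and 1, Slc25a37, fell, and the calls over all genes turned from 755 higher and 2867 lower to 1188 higher and 710 lower.

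Of 6 tested markers of brown fat, 4 rose in mouse sWAT, and Ucp1 went from 1.19 and 1.53 to 1229 and 2977 FPKM, while of 7 tested muscle markers 1 rose, with the sums given above high in the cold male library alone. Calls of members and of all genes alike moved with single libraries, from 755 genes higher and 2867 lower with all 4. Without the warm female, 3 members rose and 0 fell (117 and 8 of all genes), and without the warm male 11 rose and 1 fell (574 and 507 of all genes). Without the cold female 17 rose and 9 fell (923 and 4112 of all genes), and without the cold male 9 rose and 1 fell (426 and 989 of all genes). Slc25a20 and Slc25a39 were among the 3 members that kept their calls in all 4 of these fits.

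**Figure D2:**
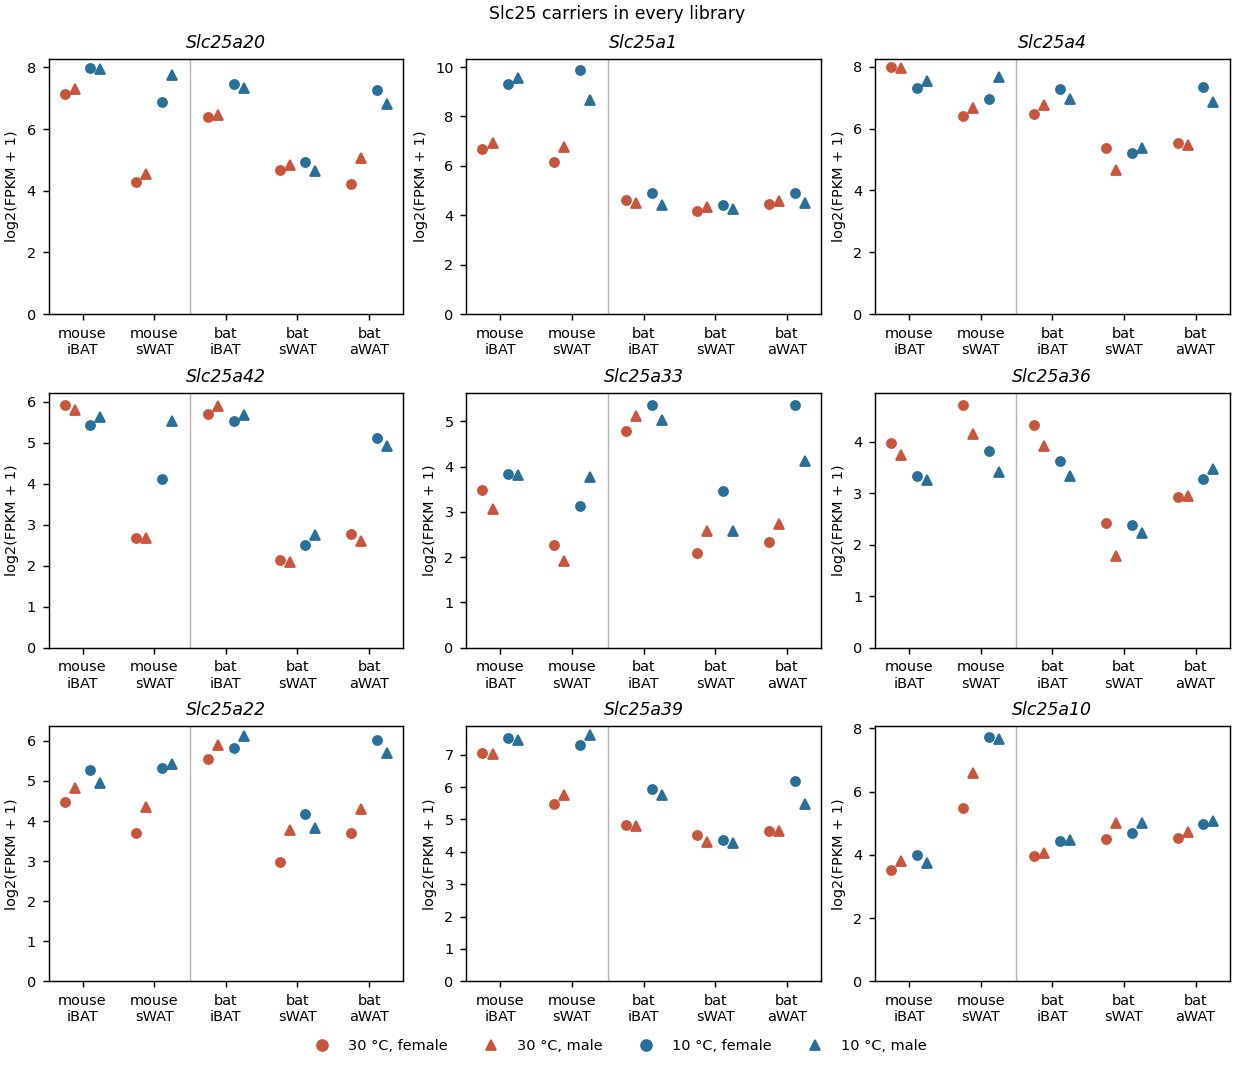
log2(FPKM + 1) of 9 Slc25 members (vertical axes, from 0) in every library, by species and depot, with red for 30 °C and blue for 10 °C, circles for female and triangles for male libraries. Slc25a20, Slc25a42, Slc25a33, Slc25a22 and Slc25a39 are higher in both cold than in both warm libraries of mouse sWAT and bat aWAT, and in Slc25a1 the cold libraries stand above the warm ones in the mouse and overlap with them in the bat.

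In mouse iBAT 5 of 35 members rose with cold, against 2.84% of all genes tested, and 1 fell, against 11.2% of all genes. Slc25a1 had the largest change, from 101 and 119 to 631 and 750.4 FPKM (2.93 ± 0.41, adjusted p = 0.016). Slc25a48 went from 4.61 and 1.85 to 8.66 and 11.1 FPKM (1.73 ± 0.33, adjusted p = 0.0373). Slc25a32, a carrier of folate and flavin, went from 5.58 and 5.63 to 13.3 and 14.4 FPKM (1.46 ± 0.19, adjusted p = 0.0184). In these the warm and cold libraries did not overlap. Slc25a17 went from 31.3 and 34.7 to 64.6 and 66.8 FPKM (1.27 ± 0.21, adjusted p = 0.0339), and Slc25a3 from 50.3 and 41.8 to 81.4 and 86.3 FPKM (1.15 ± 0.14, adjusted p = 0.0188). Slc25a23, a calcium-regulated carrier of ATP-Mg and phosphate, fell from 62.3 and 54.4 to 34.2 and 27.0 FPKM (−0.62 ± 0.20, adjusted p = 0.0318), but not under median-ratio scaling, where 5 members rose and 0 fell and the calls over all genes turned from 304 higher and 1202 lower to 687 higher and 381 lower.

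Both cold libraries of mouse iBAT lay above both warm ones in 16 of 35 members, against 13.6% of all genes tested, and below them in 14, against 59% of all genes. Slc25a20, already at 139 and 156 FPKM in the warm, reached 249.8 and 249 FPKM without passing (1.05 ± 0.28, adjusted p = 0.114). Slc25a42 was at 59.4 and 54.7 FPKM warm and 42.4 and 48.9 FPKM cold (−0.02 ± 0.41). Slc25a4 was at 252 and 251 FPKM warm and 157 and 187 FPKM cold (−0.25 ± 0.25, adjusted p = 0.184), lower in both cold libraries, and muscle markers were lower there too, though none of 7 tested passed. Muscle markers summed to 24.3 FPKM in the cold female and 739.5 FPKM in the cold male library, and the part of muscle was not tested. The call of Slc25a48 was lost when genes with low values were kept (adjusted p = 0.0615). Of other cells' markers, 3 of 4 for macrophages, 1 of 4 for endothelium and 1 of 3 for white fat fell in mouse iBAT, and their part was not tested. With any 1 of the 4 libraries left out, 0 members passed in either direction, in fits that called only 1 to 3 of the 10689 genes. The change of Slc25a1 was 2.76 to 3.10 over these fits.

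The test of whether cold acted differently on sWAT than on iBAT of the mouse found 0 members higher and 0 lower with limma, against 0.0561% and 0.0374% of all genes, with 11 and 2 at an unadjusted p under 0.05, which 10.8% and 9.73% of all genes reached. The largest estimates were those of Slc25a42 (2.50 ± 0.57, adjusted p = 0.118) and Slc25a20 (2.20 ± 0.40, adjusted p = 0.0966). Without the cold female sWAT library 8 members were higher and 1 lower, while calls over all genes went from 6 higher and 4 lower to 551 and 1077. For Slc25a1 the estimate was 0.20 ± 0.58.

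Bat aWAT was the bat depot in which cold raised the most carriers. Of 34 members tested 13 rose, against 8.66% of all genes tested, and 0 fell, against 6.67% of all genes, with 3 lower at an unadjusted p under 0.05, against 18.2% of all genes. The median member stood at 0.55 and the range was −0.88 to 2.55. Both cold libraries lay above both warm ones in 19 of the 34, against 23.6% of all genes, and below them in 4, against 35.1%.

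Of the carriers of fuel molecules, Slc25a20 went from 17.5 and 32.2 to 154 and 111 FPKM (2.55 ± 0.27, adjusted p = 0.000742), and Slc25a11 from 72.0 and 81.2 to 192 and 144 FPKM (1.25 ± 0.20, adjusted p = 0.00596), which makes 2 of the 6 carriers of carnitine, citrate and dicarboxylates. Slc25a1, at 21.1 and 23.1 FPKM warm and 29.0 and 21.7 FPKM cold, did not pass (0.31 ± 0.20, adjusted p = 0.582), and its groups overlapped. Slc25a42 went from 5.88 and 5.08 to 33.6 and 29.4 FPKM (2.46 ± 0.17, adjusted p = 0.000132). Slc25a33 went from 4.09 and 5.67 to 40.0 and 16.5 FPKM (2.34 ± 0.40, adjusted p = 0.0067), with the cold female far above the cold male. These were 2 of the 5 of 9 cofactor and nucleotide carriers that rose, beside Slc25a26, which carries S-adenosylmethionine (1.27 ± 0.19), Slc25a51 (0.95 ± 0.24) and Slc25a16, the second coenzyme A carrier (0.92 ± 0.21).

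Among carriers of amino acids, Slc25a22 went from 11.9 and 18.8 to 64.1 and 51.1 FPKM (2.00 ± 0.30, adjusted p = 0.00359). Slc25a12, which exchanges aspartate for glutamate and so serves the malate-aspartate shuttle, went from 6.94 and 5.18 to 16.1 and 9.57 FPKM (1.08 ± 0.27, adjusted p = 0.0452), and Slc25a44 rose by 0.90 ± 0.19. Slc25a4 went from 45.1 and 43.1 to 163 and 114 FPKM (1.75 ± 0.26, adjusted p = 0.00375). Muscle markers were at or near 0 in all 4 libraries, and their part was not tested. Slc25a24, a calcium-regulated relative of Slc25a23, went from 10.2 and 12.1 to 33.0 and 24.2 FPKM (1.41 ± 0.24, adjusted p = 0.00775). Slc25a39 went from 23.9 and 23.8 to 71.5 and 43.4 FPKM (1.33 ± 0.22, adjusted p = 0.00639). The cold female was above the cold male in all 3, and warm and cold did not overlap. Slc25a3 was at 603 and 673 FPKM warm and 543 and 694 FPKM cold (0.08 ± 0.29), its groups overlapping.

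Of the 6 brown fat markers 4 rose in bat aWAT with the carriers, and Ucp1 went from 3.18 and 2.67 to 7184 and 2939 FPKM. Of other cells' markers, 1 of 3 tested for mesothelium and 3 of 4 for endothelium fell, with summed FPKM of 153 and 131 warm and 59.8 and 94.9 cold for endothelium; their part was not tested. Without the warm female or without the cold female 6 members rose, with 398 and 368 of all genes higher. Slc25a12, Slc25a16 and Slc25a51 lost their calls when genes with low values were kept in the fit (adjusted p = 0.0694, 0.0528 and 0.0606), as did Slc25a12 with a pseudocount of 0.1 (0.0501). Slc25a4, Slc25a20, Slc25a22, Slc25a26, Slc25a39 and Slc25a42 kept their calls with any 1 of the 4 libraries left out. Over all genes the calls were 955 higher and 735 lower, and 1066 and 469 under median-ratio scaling, where again 13 members rose and 0 fell.

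In bat iBAT 2 of 34 members rose with cold, against 1.22% of all genes tested, and 0 fell, against 0.98% of all genes, with 6 higher and 2 lower at an unadjusted p under 0.05, against 8.34% and 11.2% of all genes. Slc25a39 went from 27.5 and 26.6 to 60.4 and 53.0 FPKM (1.14 ± 0.22, adjusted p = 0.0406), and Slc25a26 from 2.92 and 3.43 to 7.29 and 5.96 FPKM (0.97 ± 0.19, adjusted p = 0.0497). Warm and cold did not overlap in either, but both lost the call when any 1 of the 4 libraries was left out, Slc25a26 had an adjusted p of 0.0508 with a pseudocount of 0.1, and Slc25a39 one of 0.0507 under median-ratio scaling, where calls over all genes went from 135 higher and 108 lower to 145 and 56. Both cold libraries lay above both warm ones in 10 of the 34 members, against 20.1% of all genes, and below them in 7, against 33.1%. Slc25a42 was already at 50.6 and 59.0 FPKM in the warm and stood at 45.0 and 50.5 FPKM in the cold (−0.09 ± 0.17). Slc25a20, at 82.5 and 87.9 FPKM warm and 174 and 161 FPKM cold, did not pass (1.07 ± 0.27, adjusted p = 0.0936). In bat sWAT limma called 0 members higher, against 0.943% of all genes, and 0 lower, against 0.0726%, with 5 and 1 at an unadjusted p under 0.05, against 7.87% and 2.67% of all genes. Slc25a20 there was at 24.4 and 27.8 FPKM warm and 29.5 and 23.9 FPKM cold (−0.05 ± 0.27), and Ucp1 at 0.410 and 0.570 FPKM warm and 0.826 and 1.20 FPKM cold. All 6 tested muscle markers rose in cold bat sWAT, to a sum of 234 and 442 FPKM. Slc25a4 was there at 40.1 and 24.1 FPKM warm and 35.9 and 40.4 FPKM cold (0.22 ± 0.26), and the part of muscle was not tested.

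Cold acted differently on bat aWAT than on bat iBAT for 1 member. Slc25a42 had a difference of changes of 2.53 ± 0.24 (adjusted p = 0.00578), while 0.336% of all genes were called higher and 0% lower, and 10 members were higher and 2 lower at an unadjusted p under 0.05, against 6.45% and 3.73% of all genes. Leaving out the warm male iBAT library ended that call, with a difference of 2.41 (adjusted p = 0.0577) and 1 of all genes called. With libraries of the same title code, that is the same temperature and sex, taken as a replicate block, 3 members were higher: Slc25a42, Slc25a33 (1.96 ± 0.29, adjusted p = 0.0236) and Slc25a22 (1.64 ± 0.27, adjusted p = 0.0338), the last pair without a call in the unblocked fit. Over all genes the calls went from 37 higher and 0 lower to 110 and 21 with that block.

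**Figure D3:**
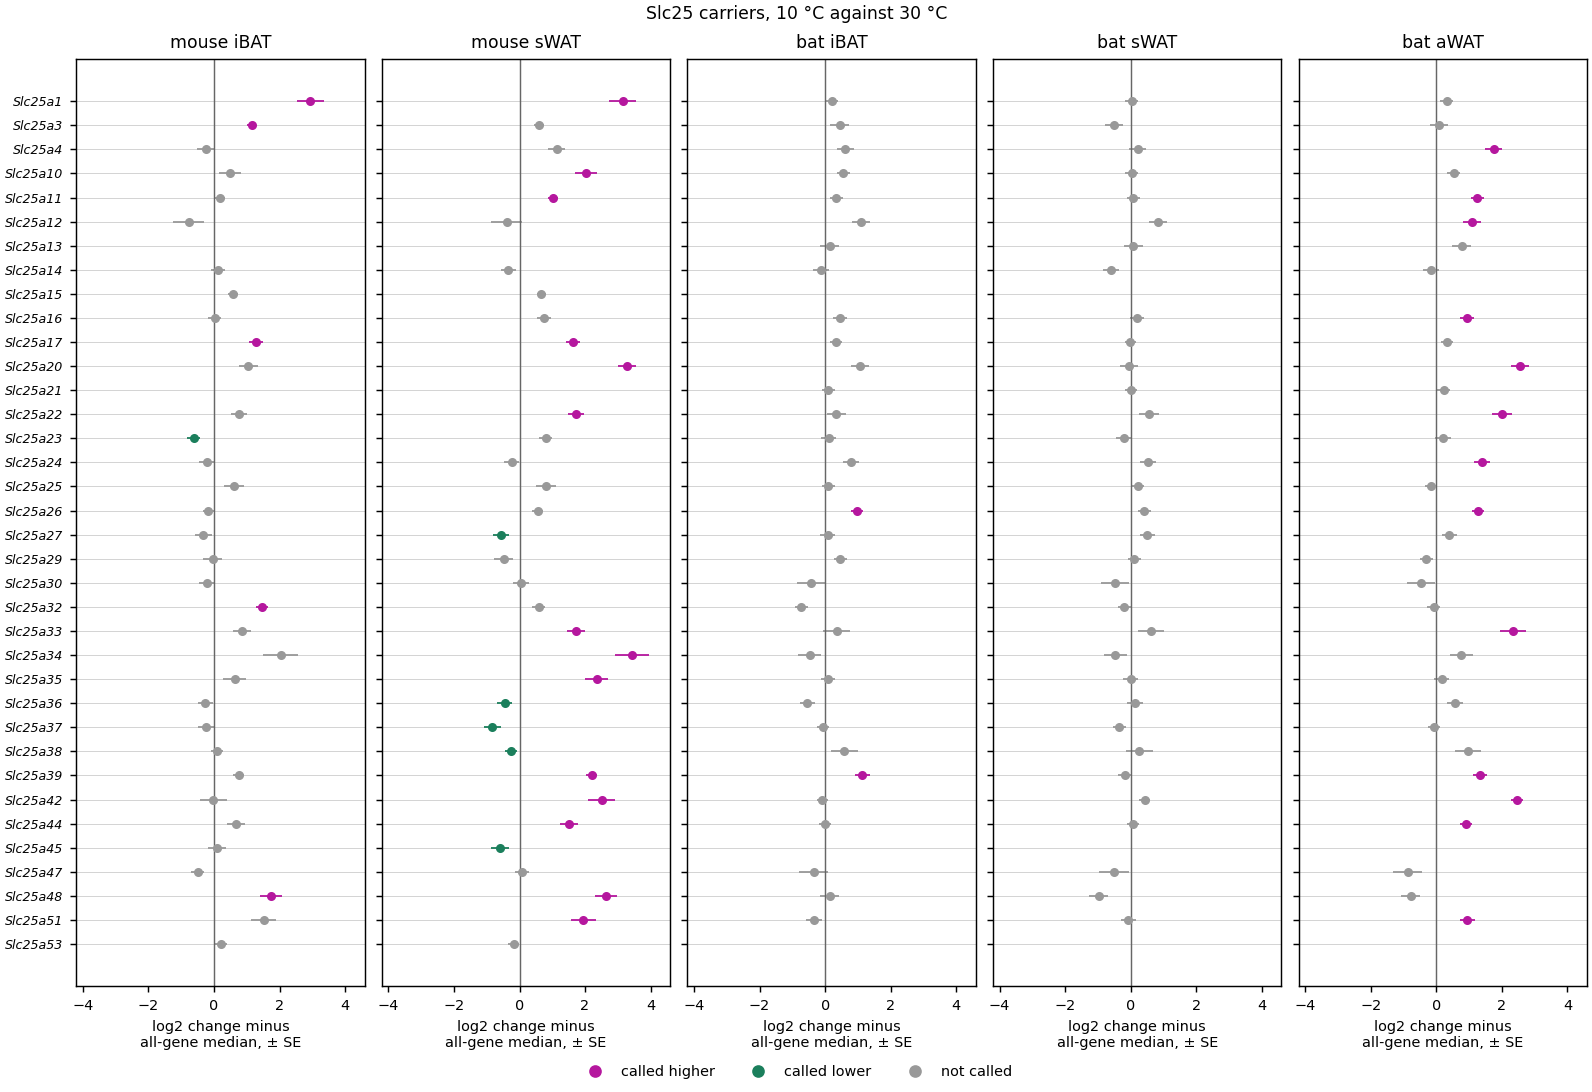
log2 change from 30 °C to 10 °C less the median of all genes (horizontal axes) ± SE for the Slc25 members tested, with 1 left out, in 5 depots, 2 libraries a group, with called members in colour. Points to the right of 0 are called for 14 of the members drawn in mouse sWAT and 13 in bat aWAT, while bat sWAT has 0 called.

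Mouse sWAT and bat aWAT, which share no library, were set side by side over the 32 members tested in both species. Slc25a11, Slc25a20, Slc25a22, Slc25a33, Slc25a39, Slc25a42, Slc25a44 and Slc25a51 rose in both, which is 53.3% of the 15 that rose in mouse sWAT and 61.5% of the 13 in bat aWAT. Of these, Slc25a51 lost its bat call in limma fits without the filter on low values (adjusted p = 0.0606) and without the mean-variance trend (adjusted p = 0.0504). Over the 9400 genes tested in both species, 323 rose in both depots, which is 46.3% of the 697 that rose in the first and 39.4% of the 819 in the second. Slc25a1, Slc25a10, Slc25a17, Slc25a34, Slc25a35 and Slc25a48 were among those called in the mouse depot alone, and Slc25a4, Slc25a12, Slc25a16, Slc25a24 and Slc25a26 in the bat depot alone. Differences between the species were not tested.

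Brown and white fat of warm animals already differed in the family. In the mouse 14 of 35 members were higher in iBAT than in sWAT, against 10.7% of all genes tested, and 10 were lower, against 48% of all genes. The largest difference was that of Slc25a42, at 59.4 and 54.7 FPKM in iBAT and 5.37 and 5.44 FPKM in sWAT (log2 difference 3.75 ± 0.41, adjusted p = 0.00208). Slc25a20, at 139 and 156 FPKM in iBAT and 18.4 and 22.2 FPKM in sWAT, differed by 3.38 ± 0.28 (adjusted p = 0.00141). In both of these the lowest iBAT library was several times the highest sWAT library. Slc25a35 (2.87 ± 0.35), Slc25a48 (2.49 ± 0.33), Slc25a39 (1.99 ± 0.17) and Slc25a23 (1.92 ± 0.20) were also higher in iBAT. Slc25a4 was higher by 2.00 ± 0.25 (adjusted p = 0.00463), in iBAT libraries that also held more of the muscle markers, whose part was not tested.

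Slc25a10 was the member furthest below, at 10.5 and 13.0 FPKM in warm iBAT and 43.8 and 95.9 FPKM in warm sWAT (−1.81 ± 0.34, adjusted p = 0.00265). Slc25a25, a calcium-regulated ATP-Mg and phosphate carrier, was at 1.08 and 0.992 FPKM in iBAT and 6.58 and 6.28 FPKM in sWAT (−1.30 ± 0.30, adjusted p = 0.00355), and Slc25a24 at 1.74 and 1.59 FPKM in iBAT and 7.96 and 6.37 FPKM in sWAT (−1.04 ± 0.24, adjusted p = 0.00281). In all 3 the depots did not overlap, so the calcium-regulated carriers were split, with Slc25a23 higher and Slc25a24 and Slc25a25 lower in iBAT. Slc25a45 (−1.23 ± 0.27) and Slc25a37 (−0.83 ± 0.25) were lower as well. All 6 tested lymphocyte markers were lower in iBAT, as were all 5 of dividing cells and all 4 of macrophages. Also lower were 1 of 3 white fat and 1 of 4 endothelial markers. Higher in iBAT were 4 of 6 brown fat, 2 of 4 endothelial, 1 of 4 fat cell and 1 of 7 muscle markers. The part of these cells was not tested. Under median-ratio scaling 19 members were higher and 6 lower, and calls over all genes turned from 1144 higher and 5126 lower to 2461 and 2290. Slc25a3, Slc25a14, Slc25a27 and Slc25a29 then lost their lower calls. Without the warm male iBAT library or the warm female sWAT library, 6 members rather than 10 were lower, with 2816 and 3067 of all genes lower.

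In cold mice 3 of 35 members were higher in iBAT than in sWAT, against 2.32% of all genes, and 5 were lower, against 27.6% of all genes. Slc25a32, at 13.3 and 14.4 FPKM in iBAT and 6.01 and 4.26 FPKM in sWAT, differed by 1.75 ± 0.19 (adjusted p = 0.00789), and Slc25a48 by 1.56 ± 0.33, a call that was lost with sex as a block (adjusted p = 0.0548). With 1 of the iBAT libraries left out, whichever it was, 0 were higher (26 and 17 of all genes), without the cold female sWAT library 1 (108), and without the cold male sWAT library 7 (396). The widest gap was again that of Slc25a10, at 14.9 and 12.4 FPKM in iBAT and 212 and 204 FPKM in sWAT (−3.38 ± 0.34, adjusted p = 0.00155), which was the 1 call of 8 to hold with any 1 of the 4 libraries left out. All 4 macrophage markers, 3 of 4 for endothelium and 1 of 5 for dividing cells were lower in iBAT as well, and their part was not tested. Slc25a20 was at 249.8 and 249 FPKM in iBAT and 117 and 215 FPKM in sWAT and did not pass (1.11 ± 0.28, adjusted p = 0.116). Median-ratio scaling gave 8 members higher and 3 lower, and calls over all genes turned from 248 higher and 2946 lower to 1344 and 1001.

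In warm bats 14 of 34 members were higher in iBAT than in sWAT, against 11% of all genes tested, and 2 were lower, against 13% of all genes. Against aWAT 10 were higher and 2 lower, with 7.66% and 12.6% of all genes. These contrasts share the warm iBAT libraries, which were the shallowest of the bat (relative depth 0.660 and 0.625), and 3 of 4 macrophage and 1 of 4 endothelial markers were lower in iBAT than in sWAT. Against aWAT all 3 tested mesothelium markers, 2 of 4 macrophage and 1 of 4 endothelial markers were lower, and 1 of 2 tested white fat markers was lower in both contrasts. Of 6 brown fat markers 3 were higher than in sWAT and 4 higher than in aWAT. Of 4 fat cell markers 1 was higher and 1 lower in each contrast. The part of depth or of these cells was not tested. Slc25a42 stood at 50.6 and 59.0 FPKM in iBAT, 3.44 and 3.26 FPKM in sWAT and 5.88 and 5.08 FPKM in aWAT, a difference of 3.75 ± 0.17 (adjusted p = 3.83e-06) from sWAT and 3.26 ± 0.17 (adjusted p = 1.5e-05) from aWAT. Slc25a33 stood at 26.5 and 33.6 FPKM in iBAT against 3.29 and 4.99 FPKM in sWAT and 4.09 and 5.67 FPKM in aWAT (2.68 ± 0.40 and 2.56 ± 0.40). Slc25a34 stood at 122 and 121 FPKM in iBAT against 21.7 and 10.5 FPKM in sWAT and 51.0 and 28.2 FPKM in aWAT (2.99 ± 0.36 from sWAT, and adjusted p = 0.0103 from aWAT). No white fat library reached an iBAT library in any of these 3.

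Slc25a22 (2.41 ± 0.30 from sWAT and 1.88 ± 0.30 from aWAT), Slc25a51 (1.99 ± 0.24 and 1.72 ± 0.24), Slc25a36 (2.09 ± 0.24 and 1.33 ± 0.24) and Slc25a20 (1.74 ± 0.27 and 1.95 ± 0.27) were higher in warm bat iBAT in both contrasts, as were Slc25a4, Slc25a11 and Slc25a44. Slc25a13, Slc25a21, Slc25a24 and Slc25a32 were called against sWAT and not against aWAT. With the title code as a block Slc25a21, Slc25a24 and Slc25a32 were called against aWAT too (adjusted p = 0.0386, 0.0142 and 0.0451), as was Slc25a38 against aWAT (0.014) and against sWAT (0.00849), and Slc25a27 against sWAT (0.0279). Slc25a48, low in the bat at 0 and 0.221 FPKM in iBAT and 2.33 and 3.36 FPKM in sWAT, was lower in iBAT in both contrasts (−1.72 ± 0.29 and −0.86 ± 0.29). Slc25a10 was at 14.6 and 15.6 FPKM in iBAT and 21.6 and 31.3 FPKM in sWAT (−0.68 ± 0.20, adjusted p = 0.0209), and Slc25a47 was lower than in aWAT (−1.37 ± 0.45, adjusted p = 0.0374). With the title code as a block 4 members rather than 2 were lower in iBAT than in sWAT, with Slc25a47 among those added (adjusted p = 0.0175), and Slc25a10 was lower than in aWAT as well (0.0162). That block raised the calls over all genes from 1213 higher and 1431 lower to 1682 and 2123 against sWAT, and from 844 and 1386 to 1206 and 2256 against aWAT. Against aWAT 6 members were higher without the warm male iBAT library (459 of all genes), and 0 were lower without it, without the warm female iBAT library or without the warm female aWAT library. Median-ratio scaling left 13 higher and 0 lower there, with calls over all genes going from 844 higher and 1386 lower to 1066 and 984.

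The remaining bat contrasts between depots called 0 members with limma. In warm aWAT against sWAT 0.662% of all genes were higher and 0.227% lower, with 4 members higher and 1 lower at an unadjusted p under 0.05, which 5.22% and 2.59% of all genes reached. In cold iBAT against aWAT 0.172% of all genes were higher and 0.644% lower, with 2 and 1 members at an unadjusted p under 0.05, which 2.48% and 9.69% of all genes reached. In the latter Slc25a42 was at 45.0 and 50.5 FPKM in iBAT and 33.6 and 29.4 FPKM in aWAT (0.73 ± 0.17, adjusted p = 0.172), and Slc25a20 at 174 and 161 FPKM in iBAT and 154 and 111 FPKM in aWAT (0.50 ± 0.27).

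**Figure D4:**
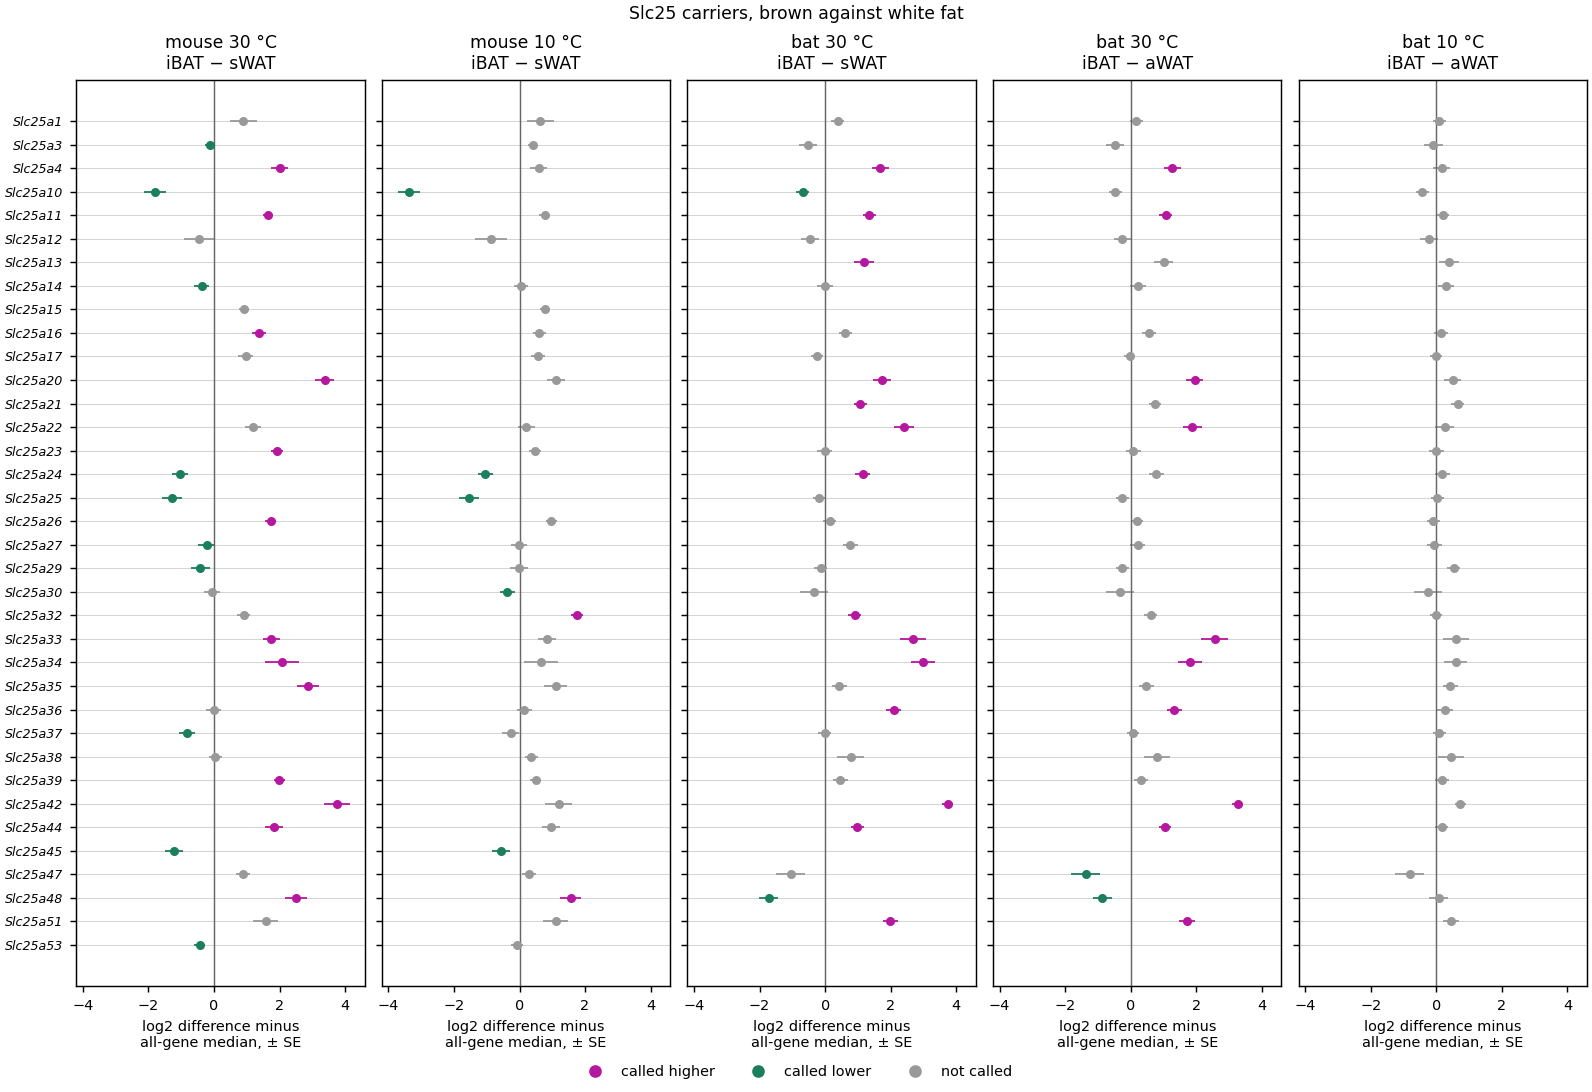
log2 difference of brown from white fat less the median of all genes (horizontal axes) ± SE for the Slc25 members tested, with 1 left out, in 5 contrasts, 2 libraries a group, with called members in colour. Slc25a42 is furthest to the right in the 3 contrasts at 30 °C, and Slc25a10 furthest to the left in the mouse.

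The pairs of close relatives were picked for unlike calls in cold mouse sWAT or bat aWAT. In such a pair a member was called and its relative was not, or was called the other way. Unlike calls therefore follow from the choice of pairs. For the pyrimidine nucleotide carriers, Slc25a33 rose and Slc25a36 fell in cold mouse sWAT, while in bat aWAT Slc25a33 rose and Slc25a36, at 6.60 and 6.75 FPKM warm and 8.72 and 10.0 FPKM cold, did not pass (0.57 ± 0.24, adjusted p = 0.245). The call of Slc25a36 in the mouse was lost under median-ratio scaling (adjusted p = 0.151). Of the coenzyme A carriers, Slc25a42 rose in cold mouse sWAT, and Slc25a16 was at 7.98 and 11.1 FPKM warm and 11.8 and 13.4 FPKM cold (0.75 ± 0.21, adjusted p = 0.179). In bat aWAT both rose, Slc25a16 from 1.13 and 1.84 to 3.05 and 3.44 FPKM. Of the aspartate-glutamate carriers, Slc25a12 was at 11.4 and 8.34 FPKM warm and 4.66 and 6.19 FPKM cold in mouse sWAT (−0.39 ± 0.48), where Slc25a13 was not tested. In bat aWAT Slc25a12 rose and Slc25a13, at 3.75 and 7.74 FPKM warm and 7.22 and 11.3 FPKM cold, did not pass (0.78 ± 0.29, adjusted p = 0.163). Differences between the members of a pair were not tested.

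The 3 relatives of the uncoupling proteins, Slc25a14, Slc25a27 and Slc25a30, were not called higher in any of the 5 cold contrasts. Their median was −0.23 in mouse iBAT, −0.34 in mouse sWAT, −0.12 in bat iBAT, −0.49 in bat sWAT and −0.15 in bat aWAT. Slc25a27 fell in mouse sWAT, where 26.8% of all genes fell. Slc25a30 was between 4.64 and 17.5 FPKM over the bat libraries. Of iron and glutathione carriers, Slc25a37 lay in the bat between 19.9 and 30.5 FPKM over all 12 libraries, while Slc25a39 rose in cold iBAT and aWAT. Slc25a29, which carries basic amino acids, was between 10.8 and 17.6 FPKM in the bat with no call. Slc25a15, the ornithine carrier, was between 2.65 and 5.09 FPKM in the mouse and at most 0.18 FPKM in the bat.

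Members below the filter were Slc25a13, Slc25a18, Slc25a21 and Slc25a54 in the mouse and Slc25a15, Slc25a18, Slc25a45, Slc25a53 and Slc25a54 in the bat. Just outside it in the mouse was Slc25a13, which exceeded 1 FPKM in 1 library (1.33), and just inside was Slc25a53, with 1.54 and 1.74 FPKM in warm sWAT. In the bat Slc25a18, the second glutamate carrier, reached 3.90 FPKM in 1 iBAT library and under 1 FPKM in the others, and Slc25a48, inside, exceeded 1 FPKM in 5 of 12. Slc25a54 was at 0 in all mouse libraries. Slc25a2, Slc25a5, Slc25a28, Slc25a31, Slc25a40, Slc25a41, Slc25a43 and Slc25a46 were not found by symbol in the expression table and were not analysed here.

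Enzymes and proteins that work beside the carriers were counted from lists. Of all genes tested, 7.06% rose in cold mouse sWAT, 8.66% in cold bat aWAT and 2.84% in cold mouse iBAT. Of 4 enzymes of the carnitine shuttle, 3 rose in cold mouse sWAT, with Cpt1b, which makes acylcarnitine for Slc25a20, at 5.57 ± 0.36, Cpt2 at 2.73 ± 0.39 and Crat at 2.19 ± 0.27. The same 3 rose in bat aWAT, Cpt2 by 2.94 ± 0.35, Cpt1b by 2.46 ± 0.23 and Crat by 1.92 ± 0.18. Of 6 tested enzymes of the malate-aspartate and citrate shuttles, 5 rose in mouse sWAT, with Acly, which splits the citrate exported by Slc25a1, at 3.28 ± 0.34, and 4 in bat aWAT, with Got1 at 3.28 ± 0.36. Acly rose by 4.27 ± 0.34 in mouse iBAT, where 2 of the 6 rose. Of 8 tested genes of mitochondrial import and chaperones, 7 rose in mouse sWAT with a median of 1.28, and 6 in bat aWAT with a median of 1.61.

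Of transport proteins of mitochondrial membranes without an Slc25a symbol, 7 of 17 tested rose and 1 fell in cold mouse sWAT, with a median of 0.58. In bat aWAT 8 of 16 rose and 2 fell, with a median of 0.86. Of all genes tested, 7.06% rose and 26.8% fell in the mouse depot, and 8.66% rose and 6.67% fell in the bat depot. In both depots Letm1, an inner membrane protein of ion exchange, rose (2.92 ± 0.25 and 2.40 ± 0.28), as did Mtch2 (2.26 ± 0.21 and 1.64 ± 0.17), and Sfxn3, a sideroflexin, fell (−0.66 ± 0.30 and −0.72 ± 0.23). Ucp3, an uncoupling protein best known from muscle, rose in mouse sWAT (3.65 ± 0.28) and iBAT (2.45 ± 0.28). In bat iBAT 5 of 16 rose, against 1.22% of all genes, with Sfxn4 at 1.93 ± 0.29, beside the 2 of 34 Slc25 members. In bat sWAT 0 of 16 were called, against 0.943% of all genes higher and 0.0726% lower. These lists were read with earlier results of the data known and were not tested as sets.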

How the data were processed

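Messenger RNA was measured in 8 mouse and 12 bat fat libraries. The deposited table holds FPKM values made by the authors for 14871 genes. Per the submitters' processing notes, CASAVA 1.8 was used. Which aligner, genome build and library total lie behind the FPKM, and how bat reads reached mouse identifiers, was not given in the sources used here. Symbols were found for 14723 identifiers and not for 148. Depth was read from the steps between low values and is relative.

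Genes that reached 1 FPKM in 2 or more libraries of a species were fitted, on the scale log2(FPKM + 1), with limma 3.58.1 in R 4.3.3, with 1 mean per group and a mean-variance trend, the libraries of a species sharing 1 spread. Tests were two-sided, with Benjamini-Hochberg adjustment over all genes of a contrast and calls under 0.05. The 13 contrasts compare temperatures, depots and the cold change between depots. Printed changes are less the median of all genes, while p-values and calls are those of the unshifted coefficients. The script was checked on simulated data. No label says that replicates are separate animals, so p-values measure the spread between these libraries.

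Named genes are up to 5 members called higher and 5 called lower with the largest change in each contrast, with carriers of fuel, amino acids, coenzyme A and iron fixed by name. A member could be left out where a paragraph would become a list, and 1 member is kept in the counts but not reported here. The members and lists were chosen with earlier results of these data known. Lists of other cell types were brown fat, white fat, fat cells, skeletal muscle, lymphocytes, red cells, dividing cells, mesothelium, epithelium, endothelium and macrophages. The planned prints of proteins and promoters were replaced by coding stretches from GENCODE M21, since proteins and promoters were not used here.

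Libraries of 1 species, temperature and sex carry the same title code across depots, and the labels do not say whether they are the same animals. The female minus male differences of 2 depots correlated at 0.26 to 0.547 in the 6 bat pairs of groups and 0.369 to 0.406 in the 2 mouse pairs with the same codes, against −0.192 to 0.0524 and −0.0173 to 0.466 with other codes. The title code was therefore tried as a replicate block in contrasts between depots. Alternatives were a pseudocount of 0.1, no filter, median-ratio scaling, no trend, both blocks and leaving out each library.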

Additional observations from a re-analysis of the deposited data

Results flagged for a closer look

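Slc25a42, a carrier of coenzyme A, had a cold change that differed between 2 bat depots. The difference, aWAT less iBAT, was 2.53 on the log2 scale (limma, adjusted p = 0.00578), with 2.46 in aWAT and −0.09 in iBAT. Both aWAT libraries were higher in the cold. In iBAT the change was not called, with 45.0 and 50.5 FPKM in the cold against 50.6 and 59.0 FPKM in the warm. There the higher cold library lay just below the lower warm one. Of all genes tested, 33.1% had both cold iBAT libraries below both warm ones. Without the warm male iBAT library the difference was 2.41 (adjusted p = 0.0577), in a fit that called 1 gene of all higher.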

How the results depend on the processing

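Groups of 2 libraries, 1 of each sex, and an unknown read depth limit every contrast. No called member changed direction relative to the median gene under any alternative run. Of members' calls, 87 held and 15 were lost under median-ratio scaling, 88 and 14 without a filter, 95 and 7 with a pseudocount of 0.1, 99 and 3 without the trend, 101 and 1 with sex as a replicate block, and 59 and 2 with the title code as a replicate block. Over all fits with 1 library left out, 255 held and 155 were lost. Counts of members moved as follows, with counts over all genes in brackets, and the cause was not tested. In the main fit 1202 of all genes fell in mouse iBAT, 2867 fell in mouse sWAT and 735 fell in bat aWAT. In bat iBAT 135 rose and 108 fell. With a pseudocount of 0.1, 2 fell in cold mouse sWAT (2019) and 1 rose in bat iBAT (129). Without a filter, 2 fell in mouse iBAT (863), 3 fell in mouse sWAT (2533) and 0 rose in bat iBAT (109). With median-ratio scaling, 0 fell in mouse iBAT (381), 1 fell in mouse sWAT (710) and 1 rose in bat iBAT (145). Under it 6 were lower in warm mouse iBAT than sWAT (2290), and 8 were higher and 3 lower in the cold (1344 and 1001). In warm bat iBAT 0 were then lower than in aWAT (984). Without the trend, 2 fell in mouse iBAT (1088) and 1 rose in bat iBAT (118). With sex as a replicate block, 2 fell in mouse iBAT (1794), 1 fell in bat iBAT (148) and 2 fell in bat aWAT (891). With the title code as a replicate block, 4 were lower in warm bat iBAT than sWAT (2123) and 3 were higher in the bat test between depots (110). The labels give no replicate numbers, so females and males were blocked by sex.

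With 1 library left out, the lone library of a group is assumed to vary like the others. Members that rose numbered 0 in mouse iBAT, 3 to 17 in mouse sWAT, 0 in bat iBAT and 6 to 11 in bat aWAT, and those that fell 0 in mouse iBAT and 0 to 9 in mouse sWAT. For iBAT against sWAT, 11 to 14 were higher and 6 to 8 lower in warm mice, 0 to 7 higher and 1 to 7 lower in cold mice, and 11 to 13 higher and 1 to 2 lower in warm bats. For warm bat iBAT against aWAT 6 to 9 were higher and 0 to 1 lower. In the test between depots, 0 to 8 were higher and 0 to 1 lower in the mouse and 0 to 1 higher in the bat. Calls that held in every such fit were 3 of 20 for cold in mouse sWAT, 6 of 13 in bat aWAT, 0 of 6 in mouse iBAT, 0 of 2 in bat iBAT, 15 of 24 for warm and 1 of 8 for cold mouse depots, and 11 of 16 and 5 of 12 for warm bat iBAT against sWAT and aWAT.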

Other observations

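Some members had low or uneven values. Slc25a12 was at 0.504 and 3.24 FPKM in cold mouse iBAT, lowest in the female library, which also had the lowest muscle markers of the mouse iBAT libraries (24.3 summed FPKM); the part of muscle was not tested. Slc25a47, best known from liver, was at 12.7 and 5.10 FPKM in warm bat aWAT and at 1.75 and 0.976 FPKM in cold bat iBAT. Slc25a38, which carries glycine for haem synthesis, was at 12.7 and 24.8 FPKM in warm bat iBAT and 6.75 and 16.1 FPKM in warm bat sWAT, lower in the female library of both depots. Of the marker lists without counts above, 1 of 3 white fat and 1 of 4 macrophage markers fell in cold mouse sWAT, and 0 of 4 fat cell, 0 of 3 red cell, 0 of 2 epithelial and 0 of 4 endothelial markers were called. In cold bat aWAT 0 of 2 white fat, 0 of 4 fat cell, 0 of 3 red cell, 0 of 2 epithelial and 0 of 4 macrophage markers were called.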
